A study of Mus musculus with 6 samples.

Results

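Reelin signalling was followed through 7 genes: the secreted signal Reln, its receptors Vldlr and Lrp8, the adaptor Dab1, the kinase Fyn, and the adaptors Crk and Crkl. The genes were chosen by name as parts of this pathway, with earlier results of these data known. Each had a single probe set that was annotated to that symbol alone, so all 7 were measured, of 19938 genes in all. The data came from mouse brain cells of strain C57BL/6J in which one reporter marks cells green and another marks cells red, separated by fluorescence-activated cell sorting. The GFP+ samples (3 arrays) were cortical neural progenitors, and the RFP+ samples (3 arrays) were labelled as differentiated neuronal progeny of the brain, with no region named. Region and population can therefore not be told apart. Neither the promoters behind the reporters nor the age of the animals is stated in the sources used here. Nothing says whether replicates came from separate animals, so the spread between samples that enters each p-value may be technical. The test also draws each gene's spread toward a value estimated over all genes.

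Reelin is a large extracellular glycoprotein. In the developing cortex it is released mainly by Cajal-Retzius cells near the surface, and it guides the placement of migrating neurons into layers. It binds the lipoprotein receptors VLDLR and ApoER2 (the product of Lrp8), which hold the adaptor DAB1 at their cytoplasmic tails. Clustering of the receptors lets Src family kinases, FYN above all, phosphorylate DAB1, which then recruits CRK and CRKL and is later degraded. Loss of Reln, of Dab1 or of both receptors together gives the inverted layering known from the reeler mouse.

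Promoters of the 3 members that differed most between the populations are shown because each of these genes was brighter in RFP+ neurons. Each window runs from 250 bases before to 50 bases after the start site, read 5′ to 3′ along the gene (RefSeq, GRCm38.p6). Capitals mark matches to the E-box CANNTG and to the GC box GGGCGG, searched on both strands. The motifs, and the choice to mark GC boxes, were settled after the matches in the Reln window had been seen.
Reln: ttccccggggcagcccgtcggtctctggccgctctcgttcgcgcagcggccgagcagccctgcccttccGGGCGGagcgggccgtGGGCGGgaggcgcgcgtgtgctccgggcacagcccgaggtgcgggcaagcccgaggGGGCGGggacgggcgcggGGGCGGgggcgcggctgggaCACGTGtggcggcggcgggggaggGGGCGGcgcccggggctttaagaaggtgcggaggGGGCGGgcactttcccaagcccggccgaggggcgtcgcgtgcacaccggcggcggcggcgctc
Dab1: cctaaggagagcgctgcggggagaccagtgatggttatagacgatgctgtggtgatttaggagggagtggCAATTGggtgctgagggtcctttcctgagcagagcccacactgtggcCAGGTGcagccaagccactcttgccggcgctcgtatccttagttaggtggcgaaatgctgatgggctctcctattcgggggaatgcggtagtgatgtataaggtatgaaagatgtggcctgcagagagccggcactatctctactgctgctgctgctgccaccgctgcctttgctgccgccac
Vldlr: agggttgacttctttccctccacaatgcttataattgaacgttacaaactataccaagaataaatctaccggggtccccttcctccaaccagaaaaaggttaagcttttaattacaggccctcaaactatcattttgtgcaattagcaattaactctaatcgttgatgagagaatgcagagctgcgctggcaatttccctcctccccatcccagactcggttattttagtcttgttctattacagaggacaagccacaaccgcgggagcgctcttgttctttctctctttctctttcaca
The Reln window lies on the minus strand at chr5:22344656-22344955, the Dab1 window on the plus strand at chr4:103619250-103619549, and the Vldlr window on the plus strand at chr19:27216234-27216533. Dab1 and Vldlr have 2 windows each in the table, and the window nearest the annotated gene start is printed.

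The 3 windows were unlike each other in base composition. The Reln window held 6 GC boxes and 1 E-box, and its GC content was 80.7%. It held 47 CpG dinucleotides, against a median of 7 over 32851 promoter windows of the same length, of which 98.6% held fewer. At least 6 GC boxes were found in 1.35% of those windows. The Dab1 window held 2 E-boxes, no GC box and 12 CpG dinucleotides, at a GC content of 57.3%. The Vldlr window held none of the motifs searched, 8 CpG dinucleotides and 43.0% GC. Over all windows 72.3% held an E-box and 35.7% a GC box, and the T-box half-site AGGTGT (13.7%) and the TATA motif TATAAA (13.6%) were found in none of the 7 members' windows. Among the other members, the Fyn window held 1 E-box and 1 GC box, the Crk window 1 GC box, the Crkl window 1 E-box and the Lrp8 window neither. Letters in a window describe the sequence only.

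Levels are intensities as deposited. A difference is the mean log2(intensity + 16) of GFP+ less that of RFP+, with its standard error (SE). It was tested with limma, and p was adjusted over all genes by the Benjamini-Hochberg method (threshold 0.05). Array medians lay between 210.31 and 221.1. As a guide to background, the level under which 95% of olfactory receptor genes lay was taken, which was 199 to 224 per array. All 7 members were above it on every array. The markers went with the labels. Of 10 progenitor genes 10 were higher in GFP+ cells (13.8% of all genes were), and of 9 cortical neuron genes 9 in RFP+ (16.2%). The progenitor list summed to 54527.4 to 55691.2 in GFP+ and 13154.2 to 15298.2 in RFP+. Cortical neuron genes summed to 23189.1 to 26941.7 in GFP+ and 60942.1 to 66097.7 in RFP+. In GFP+ no cortical neuron gene had a mean under the guide, and in RFP+ 1 progenitor gene did. Whether this reflects cells of the other kind in a sample was not tested. The median log2 difference of all genes was -0.08.

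Of the 7 members, 4 were higher in RFP+ neurons (Reln, Dab1, Vldlr and Fyn), none was higher in GFP+ progenitors, and 3 did not pass the test (Lrp8, Crk and Crkl). Over all genes 30% passed the test, 16.2% higher in RFP+ and 13.8% higher in GFP+. These shares count dim genes too, among them 1027 olfactory receptor genes, while all 7 members were above the background guide. The part of brightness in the difference from these shares was not tested. The groups did not overlap for 5 of the 7 members, against 43.9% of all genes (24.1% with RFP+ higher and 19.9% with GFP+ higher). Without GFP+ replicate 1, GFP+ replicate 2 or RFP+ replicate 3, or without both arrays numbered 1, Fyn was lost and 3 members passed. The median log2 difference of the members was -0.64. The signal Reln was 4.40-fold, the adaptor Dab1 2.74-fold, the receptor Vldlr 2.27-fold and the kinase Fyn 1.56-fold higher in RFP+. In these bulk samples a smaller share of cells that express a gene and less RNA per cell cannot be told apart.

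**Figure D1:**
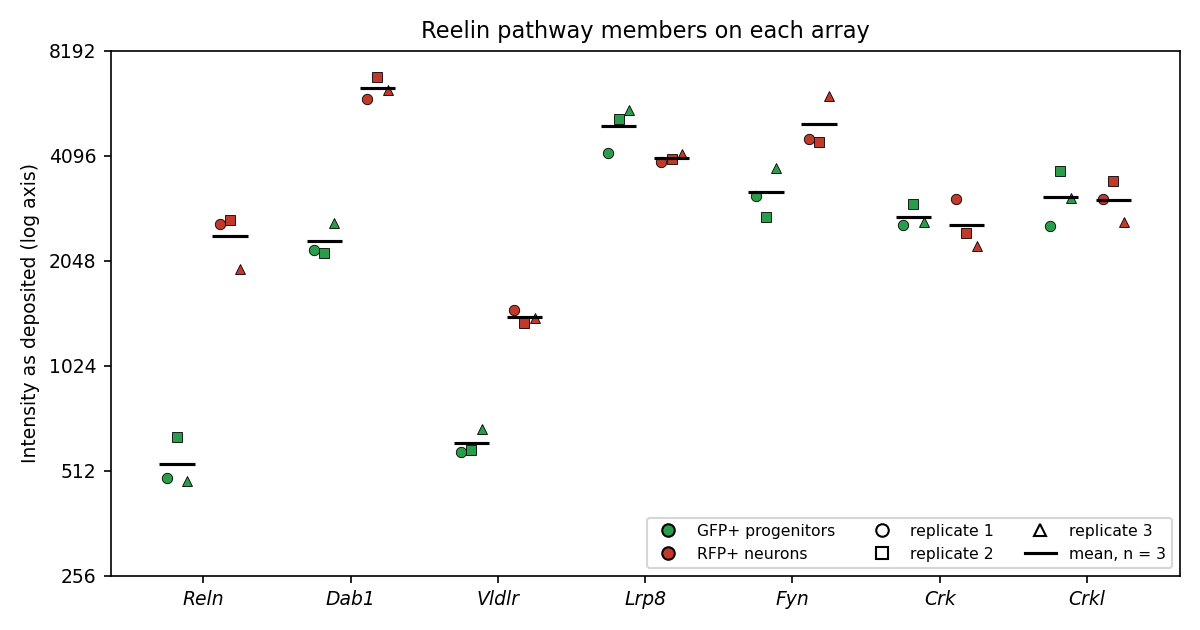
Intensity as deposited (log axis) of the 7 members on each of the 6 arrays, GFP+ in green at the left and RFP+ in red at the right of each gene, with a marker shape for each replicate number and a bar at the mean (n = 3). The groups do not overlap for Reln, Dab1, Vldlr, Lrp8 and Fyn, and they overlap for Crk and Crkl.

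Reln, the signal itself, was far brighter in the neurons. Its intensity was 486.46, 639.63 and 478.51 on the GFP+ arrays, against 2613.72, 2684.49 and 1938.36 on the RFP+ arrays. Every RFP+ array stood at least 3-fold above every GFP+ array, and the dimmest RFP+ array was replicate 3. The means were 534.9 ± 90.8 in GFP+ and 2412.2 ± 411.9 in RFP+ (SD, n = 3 each), a log2 difference of -2.14 ± 0.21 (SE, adjusted p = 1.87e-07). Ordered from the most negative difference, Reln was number 151 of 19938 genes. On every GFP+ array it was still above the background guide.

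Most but not all markers of Cajal-Retzius cells moved with Reln. Of 10 such markers 7 were higher in RFP+ neurons, against 16.2% of all genes, and none was higher in GFP+ (list median -1.40). The other 3 did not pass: Cxcr4 (log2 difference 0.32), Ebf2 (-0.26) and Ebf3 (0.008). Among the 7, Lhx1 and Lhx5 had means under the background guide in both groups. The call of Cacna2d2 (adjusted p = 0.0445) ended without any single GFP+ array and without RFP+ replicate 1 or 2. It also ended with offset 1 and without both arrays numbered 1 (adjusted p at most 0.26). Trp73, a p53 family gene known from these cells, had 57.29, 59.99 and 49.2 in GFP+, against 517.04, 439.4 and 264.26 in RFP+ (log2 difference -2.52 ± 0.23, adjusted p = 7.15e-08). Nhlh2, a basic helix-loop-helix factor gene, had 38.41, 85.21 and 62.95 in GFP+, against 517.17, 433.05 and 501.81 in RFP+ (log2 difference -2.72 ± 0.23, adjusted p = 2.46e-08). Among the RFP+ arrays Reln was dimmest on replicate 3, and so were 8 of the 10 Cajal-Retzius markers, 9 of the 10 interneuron markers, 5 of 9 cortical neuron markers and 36.4% of all genes, so this order is not particular to Cajal-Retzius markers. In GFP+ 7 of the 10 markers had a mean under the background guide, and in RFP+ 3 did, while none was listed at 0. The summed intensity of the list was 5229.4 to 7575.2 in GFP+ and 5579.1 to 8039.7 in RFP+, ranges that overlap. Cxcr4, which is not confined to these cells, made up most of both sums. The part these cells have in the Reln difference was not tested.

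Some interneurons also make Reelin at later stages. Of 10 interneuron markers none was higher in RFP+ neurons, against 16.2% of all genes, and 8 did not pass (list median 0.52). The other 2, Gad2 and Dlx2, were higher in GFP+ progenitors (20%, near the 13.8% of all genes). Gad2, a GABA synthesis enzyme gene, had a log2 difference of 0.90 ± 0.24 (adjusted p = 0.00755). Dlx2, a homeobox gene of that lineage, had 0.99 ± 0.28 (adjusted p = 0.0109), and its call ended without RFP+ replicate 3 (log2 difference 0.58, adjusted p = 0.0924). The number higher in GFP+ was 4 without RFP+ replicate 1 and 1 without RFP+ replicate 3. The summed intensity of the list was 12542.3 to 16138.0 in GFP+ and 6404.8 to 16222.6 in RFP+, ranges that overlap. The part of interneurons in the values of Reln was not tested.

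Of the receptor genes, Vldlr was higher in RFP+ neurons and Lrp8 did not pass the test. Vldlr had intensities of 579.78, 586.19 and 672.66 in GFP+, against 1477.49, 1353.03 and 1402.08 in RFP+. The arrays of each group lay close together and the groups stood well apart. The means were 612.9 ± 51.9 in GFP+ and 1410.9 ± 62.7 in RFP+ (SD, n = 3 each), with a log2 difference of -1.18 ± 0.20 (adjusted p = 9.48e-05).

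Lrp8, the ApoER2 receptor gene, had 4179.54, 5224.83 and 5524.15 in GFP+, against 3931.86, 4015.88 and 4149.8 in RFP+. The groups did not overlap, but the gap between GFP+ replicate 1 and the brightest RFP+ array was small. The log2 difference was 0.29 ± 0.20 (adjusted p = 0.288), with a 95% interval from -0.13 to 0.71. As a ratio of GFP+ to RFP+, that interval ran from 0.914 to 1.64.

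The receptor genes were also set against each other within each array. The log2 value of Vldlr minus that of Lrp8 was -2.82, -3.12 and -3.01 in GFP+, against -1.40, -1.56 and -1.56 in RFP+. The ratio was 2.78-fold lower in GFP+ (difference -1.48). The groups did not overlap, as had to follow once neither receptor gene overlapped and they went in opposite directions. An exact two-sided permutation test over the 6 arrays gave p = 0.1, the smallest that 3 against 3 arrays can give. After adjustment over the 4 ratios tested it was 0.133. For the same reason this test could give no other p, so it adds nothing to the values of each gene. The values describe how the ratio differs between the groups and not which receptor is more abundant, since intensities of different probe sets have no common scale.

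**Figure D2:**
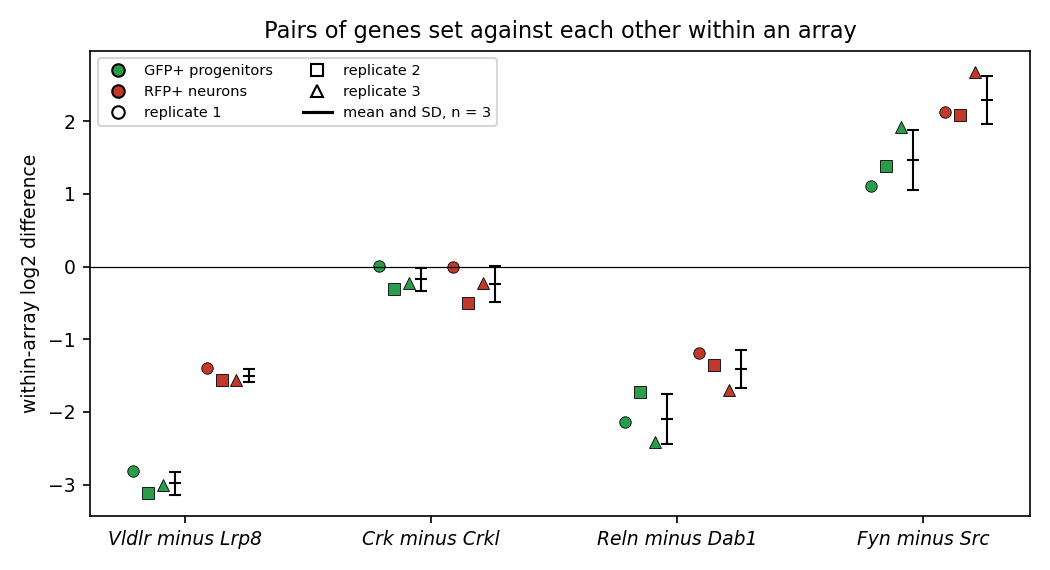
Log2 value of the first gene minus that of the second within each array, for the 4 pairs tested, GFP+ in green at the left and RFP+ in red at the right, with the mean and SD (n = 3) beside each group. The groups part for Vldlr minus Lrp8, Reln minus Dab1 and Fyn minus Src, and they overlap for Crk minus Crkl.

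Dab1, the adaptor at the receptor tails, was higher in RFP+ neurons and bright on every array. Its intensity was 2197.72, 2158.28 and 2627.09 in GFP+, against 5955.26, 6878.95 and 6341.43 in RFP+. All RFP+ arrays were more than 2-fold above all GFP+ arrays. The means were 2327.7 ± 260.0 in GFP+ and 6391.9 ± 463.9 in RFP+ (SD, n = 3 each), and the log2 difference was -1.45 ± 0.20 (adjusted p = 1.03e-05). Within arrays the log2 value of Reln minus that of Dab1 averaged -2.10 ± 0.35 in GFP+ and -1.41 ± 0.26 in RFP+ (SD, n = 3 each; exact permutation p = 0.1, adjusted 0.133).

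Fyn, the Src family kinase that phosphorylates DAB1, was moderately higher in RFP+ neurons. It had 3140.05, 2735.87 and 3782.73 in GFP+, against 4571.89, 4482.52 and 6092.18 in RFP+. The groups did not overlap, and replicate 3 was the brightest array of each. The log2 difference was -0.64 ± 0.21 (adjusted p = 0.0274). This call ended when GFP+ replicate 1 (adjusted p = 0.0595), GFP+ replicate 2 (adjusted p = 0.0975) or RFP+ replicate 3 (adjusted p = 0.137) was left out in turn. It was also lost without both arrays numbered 1 (log2 difference -0.70, adjusted p = 0.0968). Compared within number pairs, Fyn was lower in GFP+ in all 3 (-0.54, -0.71 and -0.69). Groups that do not overlap give this sign under any pairing, so it is no further support.

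Of 8 other Src family genes and their regulators that were measured, 1 was higher in GFP+ (12.5%, near the 13.8% of all genes). None was higher in RFP+, against 16.2% of all genes, and 7 did not pass (list median -0.05). With the replicate numbers as a block, 1 was higher in RFP+. Yes1, which can act on DAB1 beside Fyn, was higher in GFP+ by 1.75-fold (log2 difference 0.81 ± 0.22, adjusted p = 0.00962). Its call ended without GFP+ replicate 3 (adjusted p = 0.0533) and without both arrays numbered 1 (adjusted p = 0.0742). Src had 1449.17, 1034.48 and 991.46 in GFP+, against 1031.65, 1046.86 and 937.72 in RFP+, groups that overlap (log2 difference 0.18, 95% interval -0.26 to 0.62). Fyn minus Src averaged 1.47 ± 0.41 in GFP+ and 2.30 ± 0.33 in RFP+ (SD, n = 3 each; exact permutation p = 0.1, adjusted 0.133).

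Crk and Crkl, which bind phosphorylated DAB1 and pass the signal to the Rap1 GTPase, did not pass the test. Crk had 2592.22, 2981.66 and 2651.75 in GFP+, against 3070.55, 2453.0 and 2258.93 in RFP+. Crkl had 2583.29, 3704.5 and 3093.51 in GFP+, against 3072.47, 3464.15 and 2652.52 in RFP+. For both genes the groups overlapped. The log2 difference was 0.09 ± 0.20 for Crk (adjusted p = 0.772, 95% interval -0.34 to 0.52) and 0.02 ± 0.21 for Crkl (adjusted p = 0.945, 95% interval -0.42 to 0.46). A difference of up to 1.43-fold for Crk or 1.38-fold for Crkl toward GFP+ lies within these intervals. Crk minus Crkl averaged -0.18 ± 0.16 in GFP+ and -0.24 ± 0.25 in RFP+ (SD, n = 3 each; exact permutation p = 0.7).

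**Figure D3:**
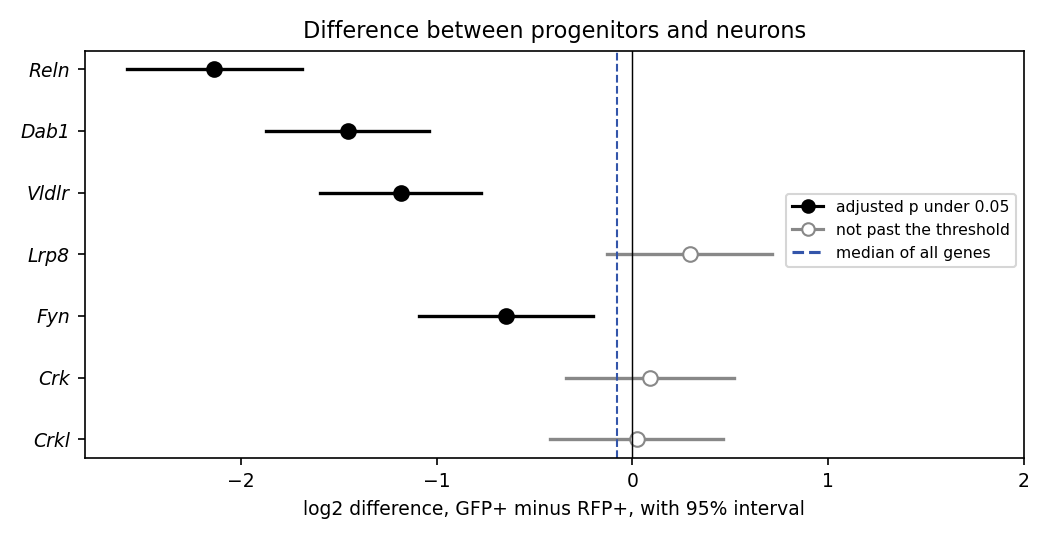
Log2 difference, GFP+ minus RFP+, of the 7 members with 95% intervals from limma (3 arrays a group), filled where adjusted p is under 0.05, with the median of all genes (-0.08) as a dashed line. Reln, Dab1, Vldlr and Fyn lie left of 0, and the intervals of Lrp8, Crk and Crkl span it.

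Across the 6 arrays Pearson correlations of log2 values were 0.97 for Reln with Dab1, 0.97 for Reln with Vldlr and 0.99 for Dab1 with Vldlr. Fyn correlated with them at 0.75 to 0.88. These values describe 2 groups of 3 arrays that stand apart, and any gene that differs strongly between the groups scores high: of 9968 bright genes compared, 194 correlated with Reln and 114 with Dab1 above 0.99. The 5 closest to Reln were Syt16, B4galnt1, Hcn4, Sppl2b and Med24 (0.9986 to 0.9996), of which Hcn4 encodes a pacemaker channel and B4galnt1 a ganglioside synthesis enzyme. Med24 did not pass the test (log2 difference -0.41, adjusted p = 0.124). The 5 closest to Dab1 were Dixdc1, Sptbn1, Map9, Ank3 and Elmo1 (0.9974 to 0.9986), of which Ank3 encodes the ankyrin of the axon initial segment and Sptbn1 a spectrin.

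Around the 7 members, 11 lists of other pathway genes were examined, with 116 genes measured of 130 listed. Of these, 20 were higher in GFP+ progenitors (17.2%, against 13.8% of all genes) and 33 were higher in RFP+ neurons (28.4%, against 16.2%), with a median log2 difference of -0.36. The remaining 63 did not pass. The shares of all genes include dim genes such as olfactory receptor genes, and the part of brightness in these counts was not tested. Without both arrays numbered 1, 19 were higher in RFP+.

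**Figure D4:**
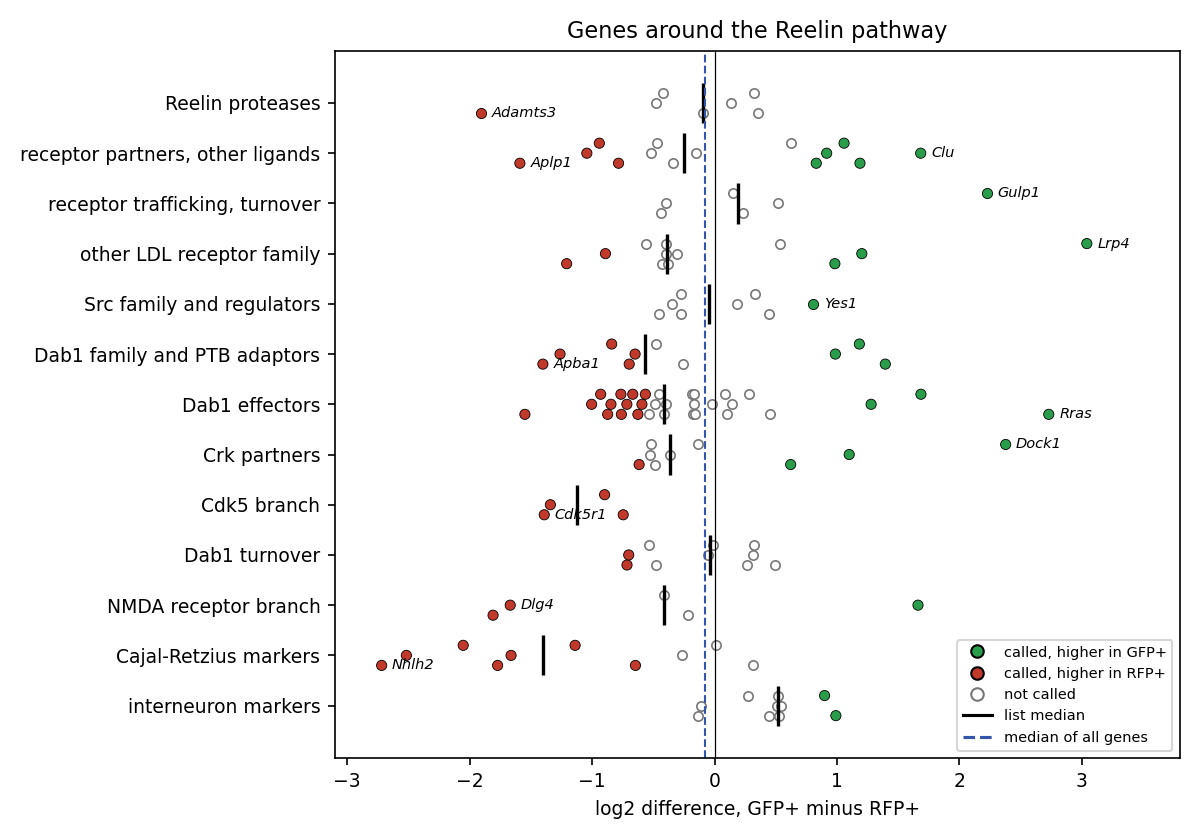
Log2 difference, GFP+ minus RFP+, of each measured gene of the 11 pathway lists and of the Cajal-Retzius and interneuron markers (a point a gene, spread vertically to separate points), green or red where called and open where not. A black bar marks each list's median and the dashed line the median of all genes (-0.08), and the Cdk5 branch lies wholly left of 0 while receptor partners and other ligands spread to both sides.

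Among the enzymes that cut Reelin, 1 of 7 differed, higher in RFP+ (14.3%, near the 16.2% of all genes). Without GFP+ replicate 2 or GFP+ replicate 3, 2 of 7 did. Adamts3, a protease known to inactivate Reelin by cleavage near its N terminus, had 543.54, 794.93 and 689.17 in GFP+, against 2458.0, 2654.88 and 2543.32 in RFP+. It was 3.75-fold higher in RFP+ (log2 difference -1.91 ± 0.21, adjusted p = 5.02e-07), the same direction as Reln. Adamts4, which can also cleave Reelin, had 287.9 ± 79.9 in GFP+ and 302.3 ± 43.5 in RFP+ (SD, n = 3 each; adjusted p = 0.784).

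Genes of receptor partners and of other ligands went both ways. Of 14 measured, 5 were higher in GFP+ (35.7%, against 13.8% of all genes) and 4 in RFP+ (28.6%, against 16.2%). The list median was -0.25. Clu, which encodes clusterin, a ligand that binds both Reelin receptors, had 1030.54, 1112.8 and 918.57 in GFP+, against 255.56, 338.05 and 330.22 in RFP+ (log2 difference 1.68 ± 0.21, adjusted p = 2.20e-06). Thbs1, the gene of thrombospondin-1, another such ligand, was 2.28-fold higher in GFP+ (log2 difference 1.19 ± 0.24, adjusted p = 5.99e-04). Aplp1, of the amyloid precursor family, was 3.01-fold higher in RFP+ (log2 difference -1.59 ± 0.20, adjusted p = 3.73e-06).

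Markers of other cell types moved with the genes that were higher in GFP+. All 10 endothelial markers were higher in GFP+, against 13.8% of all genes (list median 2.39). Their summed intensities were 3417.9 to 8469.4 in GFP+ and 1255.9 to 1458.7 in RFP+. Of 8 mural markers 6 were higher in GFP+ (75%, list median 3.10), with sums of 5434.2 to 7158.6 in GFP+ and 1201.8 to 1373.6 in RFP+. In RFP+ 8 of the endothelial and 6 of the mural markers had means under the background guide, while none was listed at 0. Oligodendrocyte lineage markers moved the same way. Of 5 measured, 4 were higher in GFP+ (80%, list median 2.78), with sums of 1352.0 to 2031.0 in GFP+ and 392.6 to 590.0 in RFP+. Those 4, Olig1, Olig2, Sox10 and Pdgfra, had RFP+ means under the background guide, and none was listed at 0. Of 7 microglia markers none passed, against 30% of all genes (list median -0.27). Their sums were 891.7 to 1346.1 in GFP+ and 1179.4 to 1402.8 in RFP+. However, Csf1r passed, higher in RFP+, without GFP+ replicate 1 (adjusted p = 0.0136) and without both arrays numbered 1 (adjusted p = 0.0182). The part of vascular or oligodendrocyte lineage cells in Clu, Thbs1 or the other genes higher in GFP+ was not tested.

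Of 12 other LDL receptor family members measured, 3 were higher in GFP+ (25%, against 13.8% of all genes). In RFP+ 2 were higher (16.7%, near the 16.2% of all genes), and 7 did not pass (list median -0.39). Lrp4, a receptor of agrin and Wnt signals, had 1611.01, 1825.61 and 1673.3 in GFP+, against 194.91, 233.3 and 156.82 in RFP+ (8.23-fold, log2 difference 3.04 ± 0.21, adjusted p = 2.82e-09). Its RFP+ mean lay under the background guide, so the fold depends on the offset of 16. Lrp5, a Wnt co-receptor gene, was 2.30-fold higher in GFP+ (log2 difference 1.20 ± 0.22, adjusted p = 2.74e-04). Lrp11 was 2.31-fold higher in RFP+ (log2 difference -1.21 ± 0.22, adjusted p = 2.00e-04).

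Genes that move receptors through the cell or remove them mostly did not pass (list median 0.19). Of 6, 1 was called higher in GFP+ (16.7%, near the 13.8% of all genes), against 2 with the replicate numbers as a block. Without GFP+ replicate 3, Vps35 passed in the other direction, higher in RFP+ (log2 difference -0.64, adjusted p = 0.0479). The gene called higher in GFP+ in the reported fit was Gulp1, an adaptor that binds the tails of LDL receptor family members. Gulp1 had 367.6 ± 63.0 in GFP+ and 65.9 ± 14.0 in RFP+ (SD, n = 3 each; log2 difference 2.23 ± 0.21, adjusted p = 1.09e-07). Its RFP+ mean lay under the background guide, so the size of the difference depends on the offset. Mylip, the ubiquitin ligase that degrades both Reelin receptors, was under the background guide in both populations, at 127.1 ± 35.0 in GFP+ and 171.3 ± 33.5 in RFP+ (adjusted p = 0.191).

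The list of Dab1 relatives holds adaptors with a phosphotyrosine-binding (PTB) domain like that of DAB1, and also Dab2ip, a Ras GTPase-activating protein gene that is no such adaptor and was 1 of those higher in RFP+. Of 10 measured, 5 were higher in RFP+ (50%, against 16.2% of all genes) and 3 in GFP+ (30%, against 13.8%). The other 2 did not pass (list median -0.56). Apba1 and Apba2, which encode the neuronal X11 (Mint) adaptors, were 2.64-fold and 2.40-fold higher in RFP+ (adjusted p = 1.96e-05 and 4.56e-05). Dab2, the closest relative of Dab1 and an endocytic adaptor gene, was higher in GFP+, with 245.9, 384.34 and 280.66 in GFP+, against 91.0, 116.0 and 104.95 in RFP+ (log2 difference 1.40 ± 0.21, adjusted p = 3.86e-05). Its RFP+ mean lay under the background guide. Averaging the probe sets of Dab2 ended this call (log2 difference 0.54, adjusted p = 0.0764). The count higher in RFP+ was 3 without RFP+ replicate 1, and also 3 without both arrays numbered 1.

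Of 31 genes downstream of DAB1, 12 were higher in RFP+ (38.7%, against 16.2% of all genes). In GFP+ 3 were higher (9.7%, against 13.8%), and 16 did not pass (list median -0.42). Without both arrays numbered 1, 4 were higher in RFP+. Mapt, the gene of the microtubule protein tau, was 2.93-fold higher in RFP+ (log2 difference -1.55 ± 0.21, adjusted p = 7.25e-06). Rras, a small GTPase gene, was 6.63-fold higher in GFP+ with an RFP+ mean under the background guide (log2 difference 2.73 ± 0.22, adjusted p = 1.10e-08). Nectin3, an adhesion gene that acts with Cdh2 when Reelin anchors migrating neurons, was 3.22-fold higher in GFP+ (log2 difference 1.69 ± 0.20, adjusted p = 1.25e-06). Its partner Nectin1, known from Cajal-Retzius cells, was at 748.3 ± 161.2 in GFP+ and 751.9 ± 98.2 in RFP+ (SD, n = 3 each; adjusted p = 0.953). The Nck adaptor genes, singled out after their values were seen, passed in opposite directions. Nck1 was 2.43-fold higher in GFP+ (adjusted p = 6.94e-05) and Nck2 1.51-fold higher in RFP+ (adjusted p = 0.0267). Leaving out GFP+ replicate 3 or any one RFP+ array ended the Nck2 call (adjusted p at most 0.085), as did leaving out both arrays numbered 1 (adjusted p = 0.11).

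All 4 genes of the Cdk5 kinase branch, which acts beside Reelin in neuronal positioning, were higher in RFP+, against 16.2% of all genes (list median -1.12). Cdk5r1, which encodes the activator p35, had 1988.66, 2441.54 and 2387.31 in GFP+, against 6532.26, 5622.24 and 5773.51 in RFP+ (log2 difference -1.39 ± 0.20, adjusted p = 1.83e-05). Cables1 was 2.53-fold and the second activator gene Cdk5r2 1.86-fold higher in RFP+ (adjusted p = 1.10e-04 and 0.00261), each with a GFP+ mean under the background guide. The kinase gene Cdk5 itself was 1.68-fold higher in RFP+ (adjusted p = 0.00595), and its call ended without both arrays numbered 1 (adjusted p = 0.056).

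Of 9 partners of Crk and Crkl measured, 3 were higher in GFP+ (33.3%, against 13.8% of all genes) and 1 in RFP+ (11.1%, against 16.2%). The list median was -0.36, the opposite sign to the balance of calls. With the replicate numbers as a block, 3 were higher in RFP+. Dock1, a Rac exchange factor gene, was 5.20-fold higher in GFP+ with an RFP+ mean under the background guide (adjusted p = 4.41e-08). The kinase gene Abl1 was 2.14-fold higher in GFP+ (adjusted p = 3.31e-04) and the paxillin gene Pxn 1.54-fold (adjusted p = 0.0228). Elmo1, a DOCK partner gene, was 1.53-fold higher in RFP+ (adjusted p = 0.0214). Leaving out RFP+ replicate 1 or 3 ended the Pxn call (adjusted p at most 0.0958). Leaving out GFP+ replicate 2 or any one RFP+ array ended the Elmo1 call (adjusted p at most 0.0723). Both were lost without both arrays numbered 1 (adjusted p = 0.131 for Pxn and 0.115 for Elmo1).

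Of 10 genes measured that end the signal, mainly by degrading DAB1, 2 were higher in RFP+ (20%, near the 16.2% of all genes). None was higher in GFP+, against 13.8% of all genes, and 8 did not pass (list median -0.03). With the replicate numbers as a block, 4 were higher in RFP+ and 1 in GFP+. Socs7, which brings DAB1 to the CUL5 ubiquitin ligase, was 1.63-fold higher in RFP+ (adjusted p = 0.0165), and Cish, another SOCS family gene, 1.64-fold (adjusted p = 0.0253). The Socs7 call was lost in the fits that left out GFP+ replicate 1, or either of RFP+ replicates 1 and 2 (adjusted p at most 0.0984), and without both arrays numbered 1 (adjusted p = 0.211). The Cish call was lost in 4 of the 6 fits that left out 1 array, those without GFP+ replicates 1 and 3 and RFP+ replicates 1 and 2 in turn (adjusted p at most 0.105). It was lost as well with offset 1 (adjusted p = 0.0561) and without both arrays numbered 1 (adjusted p = 0.155). Cul5 varied widely within both groups, at 941.2 ± 456.0 in GFP+ and 1292.2 ± 517.5 in RFP+ (SD, n = 3 each; log2 difference -0.48, adjusted p = 0.227). With the replicate numbers as a block it passed, higher in RFP+ (adjusted p = 0.0358), as it did without GFP+ replicate 3 (adjusted p = 0.0215).

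In the branch that links Reelin receptors to NMDA receptors, 2 of 5 genes were higher in RFP+ (40%, against 16.2% of all genes). In GFP+ 1 was higher (20%, against 13.8%), and the list median was -0.42. Grin2b, an NMDA receptor subunit gene, was 3.51-fold higher in RFP+ (adjusted p = 2.32e-06). Dlg4, the gene of the scaffold PSD-95, was 3.18-fold higher in RFP+ (adjusted p = 1.61e-06). Camk2a, a calmodulin kinase gene, went the other way at 3.17-fold higher in GFP+ (adjusted p = 7.74e-06), with an RFP+ mean under the background guide.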

How the data were processed

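Intensities of 35557 probe sets were used as deposited by the authors, 1 Affymetrix whole-transcript array per sample, on a linear scale. The authors used the Affymetrix Expression Console, per the submitters' processing notes; its version and its settings for background, normalization and summary are not given in the sources used here. Probe sets with 1 gene symbol (21789) were kept, and a gene with several was taken at its probe set of highest mean intensity, which left 19938 genes, unfiltered. log2(intensity + 16) was fitted with limma 3.58.1 in R 4.3.3 (lmFit, eBayes, prior degrees of freedom 15.4), with GFP+ less RFP+ as the contrast. Adjustment over all genes followed Benjamini and Hochberg. The background guide for a group is the mean over its arrays of the olfactory receptor genes' 95th percentile. Python 3.11.15 with pandas 2.3.3, numpy 2.4.6 and, for figures, matplotlib 3.10.9 did the rest. With 3 arrays a group, their number limits the precision. Promoter windows came from RefSeq (GRCm38.p6).

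The members and lists were chosen with earlier results of these data known, and 14 of 130 listed pathway genes are not analysed here. Named are all members and, per pathway list, the 3 called genes with the largest absolute difference and the largest called the other way. Nck1, Nck2, Cdk5, Adamts4, Src, Mylip, Nectin1, Cul5, Vps35, Csf1r, Dab2ip, Cacna2d2, Lhx1, Lhx5, Ebf2 and Ebf3 were added after their values were seen. For Reln and for Dab1, the 5 most correlated genes brighter than the median gene are named. From cell type lists up to 3 genes are named beside those added. The oligodendrocyte lineage list is an exception, with all 4 called genes named. In simulated data the fit recovered 1 of 50 changes of 1.5-fold, 17 of 50 of 2-fold and 41 of 50 of 4-fold. There 19738 of 19938 genes were left unchanged, whereas 30% of genes passed here, so these rates do not carry over. A gene that did not pass is still not shown to be unchanged.

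Pairing by the replicate numbers in the sample titles was checked: deviations from the group means correlated, across genes, at 0.204 to 0.361 between arrays of the same number and at -0.266 to 0.0042 between different numbers. No source used here says what a number marks. Deviations from a group mean cancel within the group, so positive correlations at the same number bring negative ones between different numbers. In these data arrays of the same number deviated in part together. With 3 arrays a group few pairings exist, so the correlations do not establish that the numbers mark a pairing. The main p-values come from the fit without the block, which does not use the replicate numbers. The block was run as an alternative. The rest were the offset (1 or 64), quantile normalization, median centring, filters on dim genes, averaging probe sets of a gene, intensity trend with robust moderation, array weights and leaving arrays out.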

Additional observations from a re-analysis of the deposited data

How the results depend on the processing

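Reln, Dab1 and Vldlr kept their direction and passed the test under all 17 alternatives, at log2 differences of -2.29 to -2.01, -1.54 to -1.39 and -1.25 to -1.11. Lrp8 passed under none (0.21 to 0.41). Fyn ranged from -0.77 to -0.50 when 1 array was left out, with 3 of 6 such fits past the threshold, and stood at -0.70 (adjusted p = 0.0968) without both arrays numbered 1. Crk ranged from -0.0040 to 0.22 and Crkl from -0.11 to 0.15 with 1 array left out, and Crkl was -0.016 under median centring, so neither had a settled sign. The within-array ratio Crk minus Crkl ranged from -0.060 to 0.19 with 1 array left out. The other 3 ratios kept their sign under the 12 alternatives run for them. Without both arrays numbered 1, 3850 genes passed, against 5978 in the fit as reported, 1848 of them higher in RFP+, against 3236, and 19 pathway genes were higher in RFP+, against 33; this leaves 2 arrays a group. With the replicate block 7371 genes passed, 4 of the 7 members among them (Fyn at adjusted p = 0.0104), and it changed no member's call; it moved the counts of 4 pathway lists by over 1.5 times, as given with them. Filters on dim genes lowered several marker counts because they remove marker genes: Cajal-Retzius markers higher in RFP+ numbered 4 without the dimmest 30% of genes, and 1 without the dimmest 50%. Dim genes near the olfactory receptor level have folds that depend on the offset.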
